A study of Ovis aries with 42 samples.

Results

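The features described here are the sheep gene IDs that were much more abundant in the pars tuberalis than in the hypothalamus of adult Rasa Aragonesa ewes. They were chosen by a mean difference of at least 4 on the log2(CPM + 0.5) scale, where CPM is a feature's count divided by the total of its library and multiplied by 1000000. Of 27054 features in the deposited count table, 55 met the rule. The rule also leaves out 1 named feature, which had a difference of -0.12 and would not have met it.

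Both tissues were taken from females of 1 breed in 3 reproductive states, with 7 libraries for each tissue and state and 42 in all. The luteal phase is the part of the cycle with a progesterone-secreting corpus luteum, the follicular phase precedes ovulation, and anestrus is the season without cycles. The labels give no treatment, no age beyond adult ewe and no number of animals, and they do not tie a hypothalamus library to a pars tuberalis library. P-values therefore measure the spread between these libraries.

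The pars tuberalis is the thin sheet of pituitary tissue around the stalk, directly below the hypothalamus. Its thyrotroph cells carry melatonin receptors, read the length of the night and pass a seasonal thyrotropin signal to tanycytes in the floor of the hypothalamus. In sheep this tissue is a known site where day length is turned into the seasonal timing of reproduction. In bulk tissue, fewer cells of a type and less RNA per cell cannot be told apart.

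No gene name stands beside the IDs in the count table, and the reference gene table used here matched 0 of the IDs. Members are therefore given by ID, with no gene function, and neither the pars tuberalis label nor any cell type was checked against marker genes. Library totals ran from 14649356 to 37726207 counts. Pars tuberalis libraries 24 (luteal) and 36 (anestrous) stood apart with the lowest totals, 15477537 and 14649356 counts.

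All 55 members had counts in all 21 pars tuberalis libraries, and the lowest count of any member there was 72. Mean levels in the pars tuberalis ran from 10.7 to 1594 CPM with a median of 62.9 CPM. The level was uneven over the set: 4 members had means over 1000 CPM, 8 over 500 CPM and 30 over 50 CPM. The 5 most abundant members held 52.0% of the summed mean, and the 10 most abundant held 74.4%. In the hypothalamus the same members had means from 0.0784 to 167 CPM with a median of 2.64 CPM. The differences that chose them ran from 4.01 to 7.94 on the log2 scale, with 15 members at 5 or more and 3 at 7 or more. These differences are a description and carry no test.

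**Figure D1:**
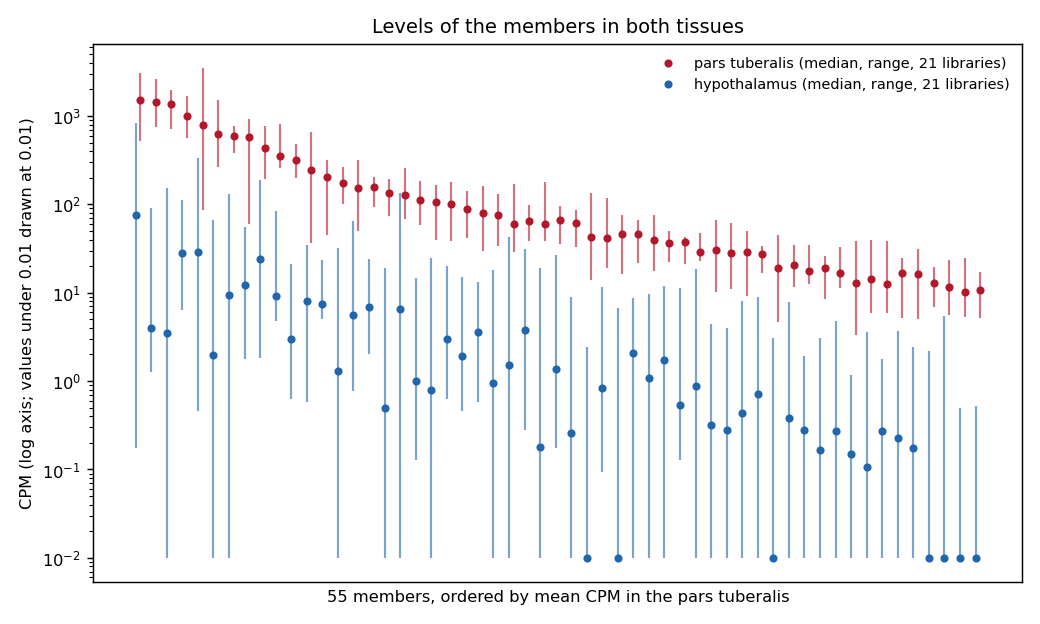
Median (point) and range (bar) of CPM on a log axis for each of the 55 members, in 21 pars tuberalis libraries (red) and 21 hypothalamus libraries (blue), ordered by mean in the pars tuberalis. The pars tuberalis bars are short, while many hypothalamus bars span several powers of 10, and 35 members were at 0 in at least 1 hypothalamus library.

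The member with the highest mean in the pars tuberalis was ENSOARG00000013153. It lay at 1594 ± 659 CPM there (SD, n = 21), from 523 in library 24 to 3082 in anestrous library 37 around a median of 1518 CPM, and ranked 39 among all features. In the hypothalamus it had a median of 76.0 CPM and a range of 0.175 to 834 CPM. The highest hypothalamus values thus overlapped the lowest pars tuberalis values, in 2 hypothalamus libraries.

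ENSOARG00000007112 was nearly as abundant, at 1534 ± 521 CPM in the pars tuberalis (SD, n = 21; lowest 751, median 1445, highest 2616 CPM). In the hypothalamus it lay between 1.26 and 90.2 CPM with a median of 3.998 CPM, so the 2 tissues did not overlap. The largest difference belonged to ENSOARG00000006034, which was 7.94 higher in the pars tuberalis on the log2 scale. Its pars tuberalis libraries ran from 712 to 1956 CPM around a median of 1353 CPM, and its hypothalamus libraries from 0 to 152 CPM around a median of 3.46 CPM.

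For 50 of the 55 members, every pars tuberalis library lay above every hypothalamus library. Over all features with a count, 4.41% showed that separation. The rule used the same contrast, so nothing is read from the difference between those shares. The 5 members with overlap were ENSOARG00000013153, ENSOARG00000012583, ENSOARG00000003121, ENSOARG00000017490 and ENSOARG00000016786, each with 1 to 4 hypothalamus libraries at or above its lowest pars tuberalis library.

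Split by state, the difference that chose the members reached 4 in 46 members in luteal, 52 in follicular and 50 in anestrous libraries, and in 39 members in every state. All 55 had a difference of at least 3 in every state. The rule averages over the same libraries, so it largely fixes these counts.

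Near the threshold, ENSOARG00000006083 and ENSOARG00000005259 were the members just inside, with differences of 4.01 and 4.05. The features just outside, ENSOARG00000013742 and ENSOARG00000008985, both had a difference of 3.99. ENSOARG00000006083 lay at 80.0 ± 41.2 CPM in the pars tuberalis and 4.94 ± 3.77 CPM in the hypothalamus, while ENSOARG00000013742 lay at 95.2 ± 31.5 and 7.88 ± 6.82 CPM (SD, n = 21 each).

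Members were steadier among pars tuberalis libraries than among hypothalamus libraries. The rule chose them to be high in the first tissue and low in the second, where low counts widen a log2 spread. This contrast is therefore partly fixed by the rule. In 49 of 55 the SD of log2(CPM + 0.5) was larger in the hypothalamus, as in 75.25% of the 8455 features whose pars tuberalis mean reached that of the lowest member. Over the 21 hypothalamus libraries it had a median of 1.23 over members and 0.41 over those features, which were not matched for hypothalamus level. Over the 21 pars tuberalis libraries it had a median of 0.50 over members and was under 0.5 in 28 of them. Among all 8455 features the median SD there was 0.34. The steadiest members were ENSOARG00000026140, with an SD of 0.25 around 27.1 ± 4.42 CPM, and ENSOARG00000004750, with an SD of 0.26. ENSOARG00000004750 kept to 384 to 762 CPM over all 21 pars tuberalis libraries, a 1.99-fold range.

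The most variable member in the pars tuberalis was ENSOARG00000012583, with an SD of 1.37 on the log2 scale. Its levels ran from 87.2 CPM in follicular library 29 to 3449 CPM in anestrous library 37, a 39.6-fold range. Each of the 3 states held both low and high libraries. Luteal libraries ran from 284 to 1996 CPM around a median of 792, follicular from 87.2 to 1175 around 689, and anestrous from 131 to 3449 around 791 CPM. ENSOARG00000002744 came next with an SD of 1.02 and a range of 36.2 to 652 CPM.

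Across pars tuberalis libraries, pairs of members had the same median correlation as pairs of all features with at least the lowest member's mean. That set includes the members and is not matched to their levels. The median Pearson r over pairs of members was 0.37 over the 21 libraries, and 0.37 over pairs of all 8455 features. With each library left out in turn, that of the members ran from 0.31 without library 24 to 0.39 without library 30. The value over all features was not recomputed in that way. These values share library depth and composition, and are given as a description. The members most like ENSOARG00000013153 were ENSOARG00000005259 (r = 0.70) and ENSOARG00000011040 (r = 0.67), picked as the closest of 54.

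The summed level of the 55 members in the pars tuberalis ran from 7154 to 16180 CPM, with a median of 13136 CPM or 1.31% of a library's counts. In luteal libraries 22 to 28, in that order, it was 13254, 12618, 7154, 10221, 13532, 9318 and 13417 CPM. In follicular libraries 29 to 35 it was 13361, 13456, 13136, 12153, 13226, 13951 and 16180 CPM. In anestrous libraries 36 to 42 it was 7580, 13631, 10681, 13208, 12767, 13054 and 10090 CPM. On these raw totals the ranges were 1.89-fold in luteal, 1.33-fold in follicular and 1.80-fold in anestrous libraries. On TMM-adjusted sizes they were 1.296-fold, 1.31-fold and 1.54-fold, so the wider luteal range was not seen there.

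The lowest sums were those of libraries 24 and 36, at 54.5% and 57.7% of the median. Library 24 held the lowest pars tuberalis value of 23 members and library 36 that of 9. In these libraries the 10 largest features took 35.2% and 29.4% of the counts, against a median of 21.8% over the 21 libraries. That share was 31.1% in library 25 and 29.2% in library 38, whose sums were 77.8% and 81.3% of the median. A share like that of library 36 thus also occurred with higher sums. When library sizes were adjusted by TMM, which discounts features that dominate a library, library 24 rose to 88.8% of the median and no longer stood apart, with 4 libraries below it. Library 36 was then the lowest, at 75.2%. The part of library makeup in these low sums was otherwise not tested.

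The mirror set, 81 features at least 4 higher in the hypothalamus by the same rule, summed to 247 to 1266 CPM in the pars tuberalis with a median of 612 CPM. It stood at 384 CPM in library 24 and 647 CPM in library 36, inside the range of the other libraries.

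**Figure D2:**
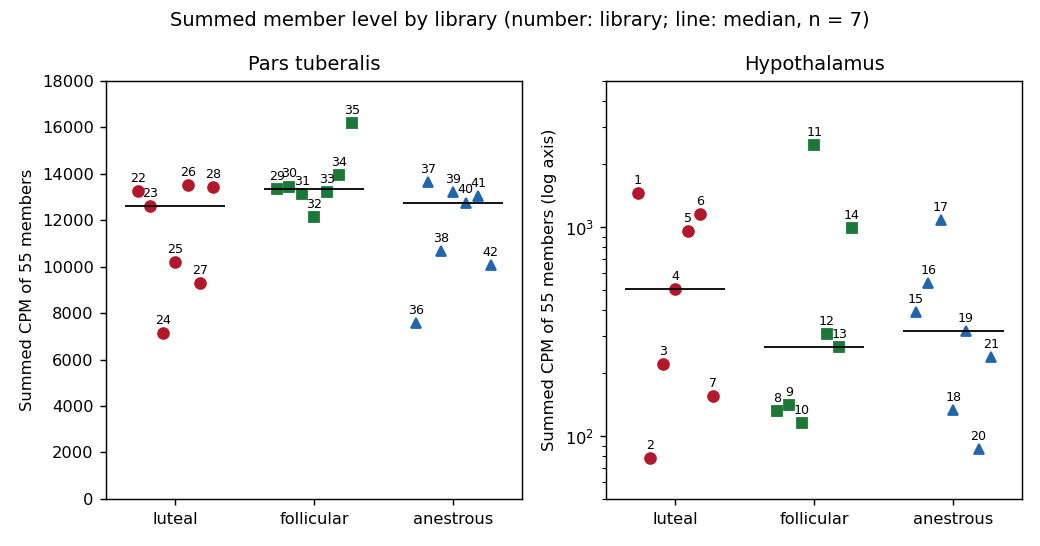
Summed CPM of the 55 members in each library, by state, with the pars tuberalis on a linear axis (left) and the hypothalamus on a log axis (right); numbers are libraries and lines are medians of 7. Pars tuberalis libraries lie between 7154 and 16180 CPM, while hypothalamus libraries spread from 78.6 to 2479 CPM in overlapping bands.

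No member passed an adjusted p of 0.05 between states in the pars tuberalis. All 55 were among the 16301 features tested with edgeR's quasi-likelihood test, in which 0% of all features passed in any of the 3 contrasts. DESeq2 and limma-voom called 0 members too, and at most 11 features in any of these contrasts. The contrasts share their libraries, so their values below are set side by side without being counted as separate evidence.

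Between follicular and anestrous pars tuberalis, 9 of 55 members had an unadjusted p under 0.05, against 6.47% of all features tested. All 9 were higher in the follicular phase, where 3.72% of all features were higher and 2.75% lower at that p. The log2 fold change was positive in 40 of the 55 members and negative in 15, with a median of 0.17 beside 0.01 over all features. Over all 16301 features it was positive in 8534. Members are correlated over the same libraries, so such counts are not separate observations. The lowest p was that of ENSOARG00000005066. Its follicular libraries lay at 13.9, 15.4 and 19.5 CPM (lowest, median, highest), its anestrous libraries at 7.10, 9.66 and 14.6 CPM and its luteal libraries at 6.98, 12.5 and 13.7 CPM. The follicular and anestrous ranges overlapped only between 13.9 and 14.6 CPM. Its log2 fold change against anestrus was 0.54 ± 0.131 SE (95% interval 0.26 to 0.81, edgeR adjusted p = 0.689). The count of 9 became 14 without follicular library 32 and 15 without anestrous library 38, 13 and 14 of them higher, and fell to 6 without anestrous library 37. Without libraries 24 and 36 it was 8, of which 7 were higher.

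Between luteal and follicular pars tuberalis, 5 of 55 members had an unadjusted p under 0.05, all lower in the luteal phase. Over all features the share was 8.47%, with 3.47% lower and 4.99% higher in the luteal phase. The median log2 fold change was -0.15 over members, with 36 of 55 negative and 19 positive. Over all features the median was -0.02, with 7544 of 16301 positive. ENSOARG00000005637 had the lowest p. Its luteal libraries ran from 38.2 to 112 CPM around a median of 87.4 CPM and its follicular libraries from 73.5 to 178 CPM around 138 CPM. The ranges overlapped, and the log2 fold change was -0.56 ± 0.174 SE (95% interval -0.92 to -0.20, edgeR adjusted p = 0.469). The count was 11 without luteal library 25, and 3, 8 and 9 without follicular libraries 30, 32 and 33.

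Between luteal and anestrous pars tuberalis, 5 of 55 members had an unadjusted p under 0.05, against 3.23% of all features. In the luteal phase 3 of these members were higher and 2 lower, beside 1.72% and 1.51% of all features. The median log2 fold change was 0.08 over members, with 38 positive and 17 negative. Over all features the median was 0.01, with 8380 of 16301 positive. Without luteal library 22 the members split into 31 positive and 24 negative. ENSOARG00000003121 had the lowest p, with luteal libraries from 50.01 to 174 CPM around 137 CPM and anestrous libraries from 100.2 to 320 CPM around 229 CPM. Its log2 fold change was -0.77 ± 0.206 SE (95% interval -1.20 to -0.35, edgeR adjusted p = 0.999). The count of 5 at an unadjusted p under 0.05 was 2 without luteal library 22 and 3 without anestrous library 41.

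**Figure D3:**
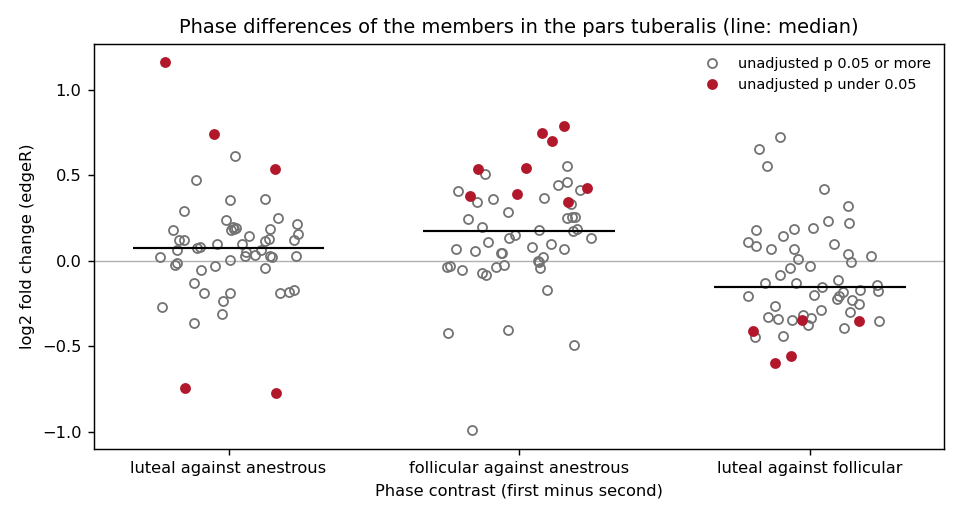
Log2 fold changes (edgeR) of the 55 members in the pars tuberalis for 3 contrasts of states; filled red points have an unadjusted p under 0.05 and lines are medians. The medians are 0.08, 0.17 and -0.15, and no point passed the adjusted threshold.

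In the hypothalamus the members left a trace that differed strongly from library to library. Their summed level in luteal libraries 1 to 7 was 1457, 78.6, 222, 505, 959, 1154 and 156 CPM, in that order. In follicular libraries 8 to 14 it was 131, 141, 116, 2479, 309, 267 and 990 CPM. In anestrous libraries 15 to 21 it was 393, 539, 1084, 133, 318, 86.3 and 238 CPM. The highest library, follicular library 11, was 31.5 times the lowest, luteal library 2, and the pars tuberalis spread was 2.26-fold. Set against the pars tuberalis median, library 11 reached 18.9%, library 1 reached 11.1%, the median hypothalamus library 2.35% and library 2 0.599%.

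High and low libraries occurred in every state. The 6 highest sums were in libraries 11, 1, 6, 17, 14 and 5, of which 3 were luteal, 2 follicular and 1 anestrous. The medians of luteal, follicular and anestrous libraries were 505, 267 and 318 CPM, inside the range of every state. Of the 55 members, 31 had their highest hypothalamus value in library 11, 14 in library 17, 5 in library 5, and the other 5 in libraries 1, 3 and 4.

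The trace was broad in a few libraries. In library 11, 54 of 55 members had counts, 38 were above 10% of their own pars tuberalis mean, and the median member stood at 14.5% of that mean. In library 17 all 55 had counts, 25 were above 10% and the median member stood at 9.68%. Library 5 also held counts of all 55 members, with 16 above 10% and a median of 7.12%. In library 2 only 33 members had counts, none was above 10%, and the median member stood at 0.157%. A count of 0 in these libraries allows a level of up to 0.0795 to 0.162 CPM (3 counts), which covers counting error only.

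**Figure D4:**
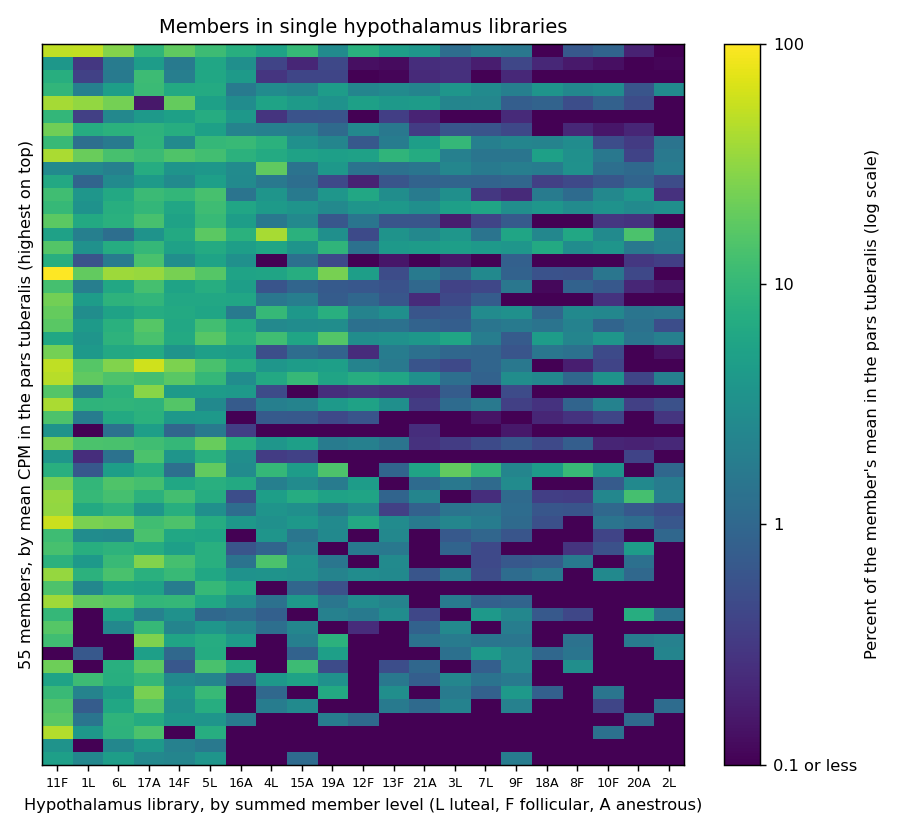
Level of each of the 55 members in each hypothalamus library as a percent of its own mean in the pars tuberalis (color, log scale from 0.1 or less to 100), with libraries ordered by summed level from left to right. Library 11 is bright over most rows, library 1 is bright in a few rows only, and libraries 20 and 2 at the right are dark.

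Library 11 also held the lowest sum of the mirror set in the hypothalamus, 7131 CPM against a median of 22042 CPM. Libraries 1 and 6, with the next highest member sums, held 32506 and 37017 CPM of that set, above its median. Of the 6 libraries with the highest member sums, 1 had a total below the hypothalamus median and 3 were among the 6 deepest. Libraries 11 and 2, the highest and lowest in member sum, had nearly equal totals of 28614698 and 28495629 counts. Features with a smaller difference, 2 to under 4, had their 6 highest sums in libraries 11, 17, 6, 5, 19 and 14, so 5 of the 6 libraries were shared with the members. They were chosen by the same difference over the same libraries, so this sharing is a description and not a separate check. The part of depth and of the mirror set in this trace was not tested.

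Members also moved together in the hypothalamus. The median r over pairs of members was 0.68 across the 21 libraries, with r over 0.5 in 75.6% of pairs, and it was 0.62 without library 11. Over all 8455 features the median r was 0.25. Among features with hypothalamus means of 0.737 to 9.01 CPM, the 27 members had a median pairwise r of 0.76 and the other 5948 features 0.22. In that band the SD of log2(CPM + 0.5) was over 1 in 26 of the 27 members and in 8.27% of the other features. The rule chose members by a low mean log2 level over these same libraries, while the band uses mean CPM. This favors members with a few high libraries and a large SD, so nothing is read from the contrasts within the band. Nor is anything read from the contrast with the 8455 features, which were not matched for hypothalamus level. All these values are descriptions over libraries that share depth and composition.

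The makeup of the trace was not the same in each library. In luteal library 1, ENSOARG00000013153 alone made up 57.3% of the member sum at 834 CPM, and ENSOARG00000012583 a further 19.05% at 278 CPM, while the median member stood at 2.92% of its pars tuberalis mean. In anestrous library 17, the largest member was ENSOARG00000006034 with 14.1% of the sum at 152 CPM, and ENSOARG00000013153 followed at 146 CPM. ENSOARG00000012583, the most variable member of the pars tuberalis, stood at 1.34 CPM in library 17. Of the 55 members, 39 lay within a factor of 2 of the library's median percent in library 17 and 44 in library 5, but 21 in library 1. In pars tuberalis libraries that number was 48 to 55, but the percents are of means over those same libraries, which favors evenness there.

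The pair ENSOARG00000013153 and ENSOARG00000006034, set side by side after their values were seen, shows how far proportions differed among hypothalamus libraries. ENSOARG00000006034 has the largest tissue difference of all members, and that of ENSOARG00000013153 is smaller. Those differences fix in advance that their ratio is typically higher in the hypothalamus, so nothing is read from that shift between tissues. In the pars tuberalis their ratio of CPM ran from 0.487 to 4.33 with a median of 1.15 over 21 libraries. The 4.33 was that of library 37 alone, and the next highest was 1.88 in library 22. In the hypothalamus it ran from 0.833 to 215 with a median of 11.4 over 19 libraries, leaving out libraries 8 and 18, where ENSOARG00000006034 had at most 3 counts. The ratio exceeded the highest pars tuberalis value in 14 of these 19 libraries, a count largely fixed by the tissue differences of the pair. It was 0.958 in library 17, 2.08 in library 16 and 2.20 in library 5, inside the pars tuberalis range. Library 20, with the second lowest member sum, lay inside it as well at 2.87 (66 and 23 counts). For libraries 16, 5 and 20 this rests on pars tuberalis library 37, as their ratios were above the 1.88 of library 22. The ratio was 162 in library 1 and 215 in library 12, while the ratio of 0.833 in library 2 rests on 5 counts of ENSOARG00000013153. CPM are not divided by transcript length, so a ratio between these 2 members is read only across libraries.

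**Figure D5:**
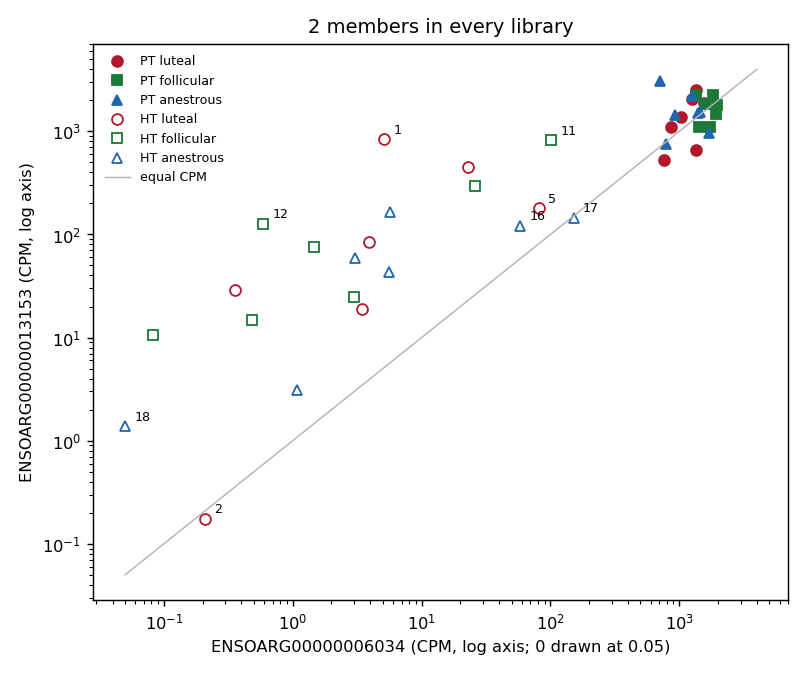
CPM of ENSOARG00000013153 against ENSOARG00000006034 in all 42 libraries on log axes, with filled points for the pars tuberalis (PT) and open points for the hypothalamus (HT), and a line of equal CPM. The pars tuberalis points cluster around the line, hypothalamus libraries 5, 16 and 17 lie near it, and libraries 1 and 12 lie far above it.

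Single members reached pars tuberalis levels in single hypothalamus libraries. ENSOARG00000017490 stood at 134 CPM in library 11, which was 98.4% of its pars tuberalis mean and inside its pars tuberalis range of 68.6 to 259 CPM. Its median hypothalamus library held 6.57 CPM. ENSOARG00000016786 stood at 43.2 CPM in library 17, or 61.4% of its pars tuberalis mean, with a hypothalamus median of 1.54 CPM. In all, 48 of 55 members exceeded 10% of their pars tuberalis mean in at least 1 hypothalamus library, and 4 exceeded 50%.

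Some members had low counts in most hypothalamus libraries and exceeded 10% of their pars tuberalis mean in at least 1 of them. At 0 in over 10 of the 21 libraries were 7 members, of which 4 exceeded 10% of their pars tuberalis mean in at least 1 other library. A hypothalamus median under 1% of the pars tuberalis mean was found in 22 members, and 15 of these exceeded 10% in at least 1 library. Over all 55 members 48 did so, a larger share than in either of these groups. ENSOARG00000000359, picked for its 16 libraries at 0, had counts in libraries 5, 6, 11, 14 and 17 only, at most 12 counts in any, beside 5.30 to 24.6 CPM in the pars tuberalis. Those 5 libraries were among the 6 with the highest sums. ENSOARG00000000359 reached at most 4.09% of its pars tuberalis mean in the hypothalamus, the lowest such peak of the 55 members. ENSOARG00000018841, picked as a contrast, was present in every hypothalamus library between 5.06 and 23.4 CPM with a median of 7.39 CPM, and its pars tuberalis libraries ran from 44.45 to 318.5 CPM.

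No member passed an adjusted p of 0.05 between states in the hypothalamus by edgeR, DESeq2 or limma-voom. The filter on low counts kept 45 of the 55 members among 16350 features tested. Over all features edgeR called 0% in each contrast. In follicular against anestrous, limma-voom called 1549 features (9.47%) and DESeq2 68 (0.416%), and edgeR called 890 of 16419 without library 15, none of them members. The lowest adjusted p of a member in follicular against anestrous was 0.063 by limma-voom and 0.478 by edgeR. The median log2 fold change over the 45 members in that contrast was -0.44 by limma-voom and 0.22 by edgeR. In luteal against anestrous it was 0.66 by limma-voom and -0.002 by edgeR, so its sign depended on the method. At an unadjusted p under 0.05 edgeR gave 0 members in luteal against anestrous (4.44% of all features). It gave 2 in follicular against anestrous (10.3%) and 1 in luteal against follicular (1.14%). The lowest p in follicular against anestrous was that of ENSOARG00000006083, with follicular levels of 0.585, 2.66 and 5.33 CPM (lowest, median, highest) and anestrous levels of 1.16, 4.64 and 12.7 CPM. The ranges overlapped widely. Its log2 fold change was -1.28 ± 0.554 SE, with an adjusted p of 0.478 by edgeR. That count of 2 was 4 by DESeq2, 4 without library 10 or 17, 1 without library 12, 16, 18, 20 or 21, and 0 without library 19.

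In luteal against follicular hypothalamus, ENSOARG00000011444 had the lowest p with a log2 fold change of 1.22 ± 0.563 SE (edgeR adjusted p = 0.9997). Its luteal libraries ran from 7.63 to 17.6 CPM except library 4 at 83.9 CPM, and its follicular libraries from 5.67 to 16.1 CPM. Leaving out single libraries gave log2 fold changes of 0.27 to 1.37. The count of 1 was 7 by limma-voom. It became 4 without library 11, 2 without library 2, 6 or 7, and 0 without library 4, 9, 10, 12 or 13. In luteal against anestrous hypothalamus, ENSOARG00000012583 ran from 0.456 to 278 CPM in the luteal phase and from 1.34 to 37.3 CPM in anestrus, so the ranges overlapped. Its log2 fold change was 2.002 ± 1.04 SE, with an adjusted p of 0.993 by edgeR. Without luteal library 1 the log2 fold change was 1.26. The count of 0 there was 1 by limma-voom and by DESeq2, and 1 without library 2 or 17.

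No member passed an adjusted p of 0.05 for a difference between states that itself differed between the tissues. In the fit of all 42 libraries, which tested all 55 members among 17296 features, edgeR, DESeq2 and limma-voom each called 0 members. Of these members, 10 had not passed the low-count filter in the hypothalamus and entered through the pars tuberalis, where the rule chose them to be high. At an unadjusted p under 0.05 edgeR gave 1 member for luteal against anestrous, 3 for follicular against anestrous and 2 for luteal against follicular, where all features gave 4.16%, 6.67% and 3.19%. The lowest p for follicular against anestrous was that of ENSOARG00000012583. Its difference of log2 fold changes, pars tuberalis minus hypothalamus, was -2.96 ± 1.26 SE (95% interval -5.51 to -0.42, edgeR adjusted p = 0.709). By limma-voom with sample weights it was -0.89. For ENSOARG00000011087 in luteal against anestrous and ENSOARG00000003121 in luteal against follicular, the differences were 2.19 ± 1.04 SE and -1.60 ± 0.738 SE (edgeR adjusted p = 0.9999 and 0.99997). By limma-voom the second of these was -1.05, and the count of 2 for luteal against follicular was 8. ENSOARG00000011087 is one of the 10 members that had not passed the hypothalamus filter, with 0 counts in 7 libraries and at most 4.78 CPM, so nothing is read from its value.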

How the data were processed

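RNA with an integrity number above 7 was sequenced on an Illumina platform, per the labels' protocols. The authors deposited raw counts per Ensembl sheep gene ID in 1 table, with 0 columns of no sample and 0 identical pairs of columns. The submitters' processing notes name R 3.5.1, StringTie 1.3.5, HISAT2 2.1.0, DESeq2, Trimmomatic 0.38, SAMtools 1.7 and FastQC 0.11.5, in no stated role. Genome build, annotation, strand setting and treatment of shared reads were not given in the sources used here. Members with near-identical copies or overlapping neighbours are therefore uncertain.

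Members and tests were chosen with earlier results of these data known. Levels are CPM on raw library totals. Tests used edgeR 4.0.16 (R 4.3.3) with robust two-sided quasi-likelihood F tests, TMM sizes, filterByExpr with a minimum count of 10 and Benjamini-Hochberg adjustment over all features tested. The 21 libraries of each tissue were fitted together, and all 42 for differences between tissues. Standard errors came from the fold change and F. Alternatives were DESeq2 1.42.0, limma-voom (limma 3.58.1), other size factors and filters, only the 2 phases compared, and leaving out each library. The edgeR test was also run on simulated independent counts with pars tuberalis levels, for follicular against anestrous only. That run does not cover the hypothalamus or the differences between tissues.

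Members were named by rule: the 2 highest in pars tuberalis mean, tissue difference, SD in either tissue and share reached in 1 hypothalamus library, the 2 lowest in pars tuberalis SD, those next to the threshold, the 2 most like the most abundant member, and the lowest p of each contrast. Other members were named after their values were seen: those that overlap between tissues and those picked by their hypothalamus counts. Marker lists by gene symbol matched 0 IDs and were not used.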

Additional observations from a re-analysis of the deposited data

Results flagged for a closer look

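In each group of 7 libraries, the summed level and 17 named members were checked for a single library set apart from the others on the log2 scale by more than 0.568 of the group's range (Dixon's 95% value). This gave 6 of 108 checks, where chance flags about 5%. Of these, 3 concern ENSOARG00000005066 and libraries already apart in the sums: 2.20 CPM in hypothalamus follicular library 11 against 0 to 0.494 CPM in the other 6, 0.892 CPM in hypothalamus anestrous library 17 against 0 to 0.239 CPM, and 6.98 CPM in pars tuberalis luteal library 24 against 11.2 to 13.7 CPM. ENSOARG00000005259 stood at 39.7 CPM in pars tuberalis anestrous library 36 against 57.7 to 73.8 CPM. ENSOARG00000011444 stood at 83.9 CPM in hypothalamus luteal library 4 against 7.63 to 17.6 CPM. ENSOARG00000003121 stood at 0.770 CPM in hypothalamus follicular library 12 against 4.47 to 10.7 CPM.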

How the results depend on the processing

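The number of members depended on the rule's own settings. It was 131 with a pseudocount of 0.1, 34 with a pseudocount of 1, 180 at a difference of 3 and 15 at a difference of 5, which follows from how the rule is built. It was 50 with TMM-adjusted sizes and 72 with medians, and ran from 53 to 63 when each library was left out, with at least 52 of the 55 kept. Chosen after the data were seen, leaving out pars tuberalis libraries 24 and 36 gave 62, and leaving out hypothalamus libraries 11 and 17 gave 70. The number of members past an adjusted p of 0.05 was 0 in all 9 contrasts and in every alternative run, and between 0 and 0 when each library was left out of the 6 contrasts within a tissue. The lowest pars tuberalis sum was 54.5% of the median in library 24 on raw totals and 75.2% in library 36 on TMM-adjusted sizes, where library 24 stood at 88.8%. The ranges within each state on TMM-adjusted sizes were added after the data were seen. The median hypothalamus sum, 2.35% of the pars tuberalis median, was 1.33% to 2.85% in the alternatives. No paired analysis was possible because the library numbers in the labels are unique and tie no libraries together. With 45 of 55 members tested in the hypothalamus, low counts there limit what the phase contrasts could show.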
